A study of Homo sapiens with 4 samples.

Results

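The genes of the cytosolic ribosomal proteins were followed in RNA-seq counts of cells labelled HepG2, a human cell line from a liver tumor, before and after DNA damage by doxorubicin. Members were taken by name, as rows whose symbol is RPL or RPS with a number, with or without the endings A, L, X, L1 or AL, together with RPLP0, RPLP1, RPLP2 and RPSA. This gave 84 of 59050 rows, of which 52 encode large subunit proteins and 32 encode small subunit proteins, and pseudogenes were left out. The untreated group (0 h) held 2 libraries and the doxorubicin group (1 µg/ml for 24 h) held 2 libraries, and each pair was described as biological replicates. The treatment field of the doxorubicin libraries reads p53-miRNA, while the protocol and the design text describe doxorubicin used to induce p53. The titles read HepG2-nop53 for the untreated and HepG2-p53 for the doxorubicin libraries. The titles alone do not say whether this means a genotype or the state of p53. The study describes activation of p53 by DNA damage in HepG2 cells. All 4 libraries carry the label of the same cell line, with no transgene or deletion named beyond these titles. RNA was selected by poly-T beads.

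A ribosome is built from ribosomal RNA and a fixed set of proteins, most of them present once in each subunit. Mammalian ribosomal protein mRNAs usually begin with a 5′ terminal oligopyrimidine tract (TOP), a C followed by a run of pyrimidines at the cap, through which their translation responds to growth signals. When ribosome assembly is disturbed, free RPL5 and RPL11 bind the p53 ligase MDM2, and one paralog, RPS27L, is known as a transcriptional target of p53.

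The libraries held 27572740 to 36272180 counts, so that 3 counts correspond to 0.0827 to 0.109 CPM (counts scaled to a common library total). Untreated replicate 2 stood apart: 31258 genes had a count there, and 25734 to 27609 genes had one in the other libraries. Fold changes of the main members and lists are therefore given with and without it. The liver label was not borne out by its markers. Of 15 liver genes, 14 were at a CPM of at most 5 in every library, ALB was at most 0.109, and their summed CPM was 1.35 and 5.89 in untreated and 17.1 and 20.1 in treated libraries, the last values carried mostly by FGG. Of 6 epithelial genes 4 were at most 5, with KRT8 and KRT18 above, and so were 5 of 5 blood genes and 1 of 6 fibroblast genes. KRT8 had 4105 and 3968 CPM in untreated and 2440 and 2088 CPM in treated libraries, and KRT18 had 1793 and 783 against 1086 and 937. The fibroblast genes summed to 226 and 169 CPM in untreated and 283 and 284 CPM in treated libraries. Of them, DCN had log2 fold changes of 3.59 with 4 libraries and 3.81 without untreated replicate 2, and LUM had 1.22 and 1.05. In the same order, COL3A1 had -0.60 and -0.60, COL1A1 -0.02 and -0.37, and PDGFRB -0.08 and -0.28. The median of the 5 tested fibroblast genes was -0.02, and -0.28 without untreated replicate 2, with 3 below 0 in both fits. DCN had 0.469 and 0.623 CPM in untreated and 7.69 and 6.85 CPM in treated libraries. Without untreated replicate 2, KRT8 and KRT18 were lower and DCN and LUM higher at adjusted p values of 0.000206, 0.000364, 1.25e-11 and 0.000739 in edgeR. The part of these cell type markers in the ribosomal protein values was not tested. In bulk RNA, fewer cells of a kind and less RNA per cell cannot be told apart.

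The starts of 4 paralog pairs and of 3 members described further on are shown. The members differ in whether the transcript opens with a TOP at the RefSeq start. Each run holds the 10 bases before the RefSeq start (GRCh38.p14) and the first 20 of the first exon, 5′ to 3′ on the gene's strand, and capitals mark a pyrimidine run that begins with C at the start, where that C is followed by at least 4 more pyrimidines.
RPS27: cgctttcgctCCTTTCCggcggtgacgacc
RPS27L: gatgccgagcgcagatcgcttgcagcttgc
RPL22: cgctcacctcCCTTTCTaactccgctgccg
RPL22L1: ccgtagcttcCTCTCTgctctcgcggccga
RPL26: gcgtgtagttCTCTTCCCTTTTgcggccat
RPL26L1: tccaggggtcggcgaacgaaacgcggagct
RPL36A: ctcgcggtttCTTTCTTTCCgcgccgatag
RPL36AL: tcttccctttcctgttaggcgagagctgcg
RPLP1: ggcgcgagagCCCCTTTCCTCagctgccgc
RPL12: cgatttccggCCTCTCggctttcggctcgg
RPS15: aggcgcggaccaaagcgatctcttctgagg

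RPS27 lies at chr1:153990752-153990781 on the plus strand and RPS27L at chr15:63157458-63157487 on the minus strand. RPL22 is at chr1:6199576-6199605 and RPL22L1 at chr3:170870176-170870205, both on the minus strand. RPL26 is at chr17:8383174-8383203 on the minus strand and RPL26L1 at chr5:172958719-172958748 on the plus strand. RPL36A is at chrX:101391001-101391030 on the plus strand and RPL36AL at chr14:49620607-49620636 on the minus strand. RPLP1 is at chr15:69452808-69452837 (plus), RPL12 at chr9:127451387-127451416 (minus) and RPS15 at chr19:1438386-1438415 (plus). At the RefSeq start, the parent opens with a TOP and the paralog does not in 3 of these 4 pairs, while RPL22 and RPL22L1 both do. In RPL36AL an unbroken pyrimidine run spans the start, so its lack of a TOP depends on the annotated base. RefSeq gives 1 start for each of these genes except RPL26L1, which has 2.

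RefSeq promoters, from 250 bases before to 50 bases after the start, were matched by symbol for 67 of the 84 members. A C at the start followed by at least 4 pyrimidines was found for 47 of the 67 members (70.1%), in 57.3% of their promoter entries, against 4.07% of the 35116 promoters in the table. Searched on both strands, CCGGAAG, a core bound by ETS factors, was present in 34.1% of member entries and 10.3% of all. ATGGCG, a core bound by YY1 that also spans the start codon of many genes, was in 35.4% and 10.7%, and the SP1 core GGGCGG in 56.1% and 45%. The TATA box letters TATAAA were in 8.54% of member entries and 11.5% of all promoters. These are matches of letters and not measured sites.

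RNA of ribosomal proteins took a smaller share of both doxorubicin libraries than of either untreated library. The 84 members summed to 53399 and 67150 CPM in the untreated libraries and to 48388 and 44345 CPM in the doxorubicin libraries, values being given here and further on in the order of replicates. They took 5.34%, 6.71%, 4.84% and 4.43% of the counts. The group means were 60274 ± 9723 (SD, n = 2) and 46367 ± 2859 (SD, n = 2), a log2 ratio of -0.38. The groups did not overlap, but untreated replicate 2 exceeded untreated replicate 1 by 0.33 on the log2 scale. That gap between replicates is larger than the difference between untreated replicate 1 and the doxorubicin mean, which was -0.20 on the log2 scale, or 13.2% lower. Between the doxorubicin replicates, replicate 2 differed from replicate 1 by -0.13, about the size of the difference of -0.14 between doxorubicin replicate 1 and untreated replicate 1.

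**Figure D1:**
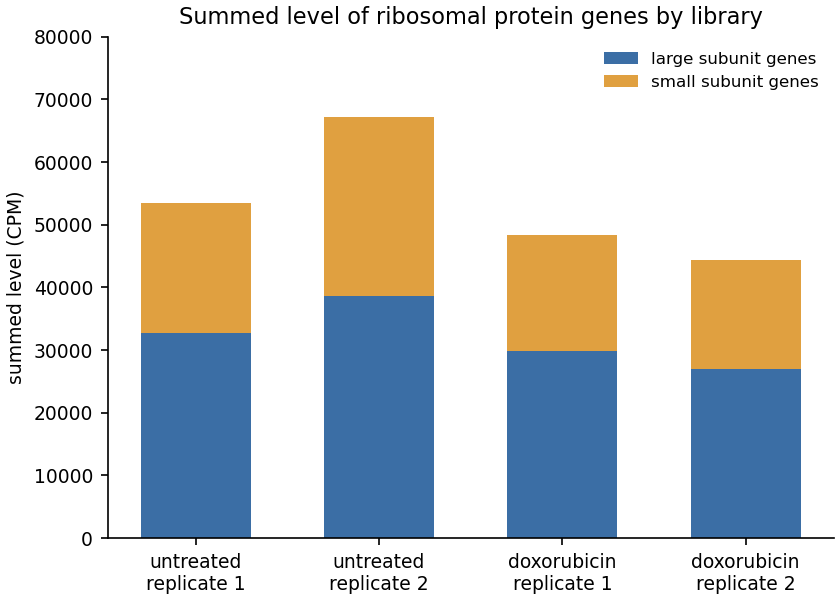
Summed level of the ribosomal protein genes in each of the 4 libraries, in CPM, as bars from 0 divided into large subunit genes (52) and small subunit genes (32). Each bar is 1 library without an error bar. Untreated replicate 2 is the tallest, and both doxorubicin bars are below both untreated bars.

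The subunits did not keep the same proportion in the library that stood apart. Large subunit genes summed to 32800 and 38613 CPM without treatment and to 29841 and 26991 with it. Small subunit genes summed to 20599 and 28536 CPM without treatment and to 18547 and 17354 with it. The ratio of large to small was 1.59 and 1.35 in the untreated pair and 1.61 and 1.56 in the doxorubicin pair. Untreated replicate 2 was thus the low library in this ratio, and the other 3 were close together. With library totals rescaled by TMM, which assumes that most genes are unchanged, the summed levels were 56577, 70601, 47307 and 40718, and the log2 ratio of the group means was -0.53. On this scale the difference of the doxorubicin mean from untreated replicate 1 was -0.36, larger than the gap of 0.32 between the untreated replicates, which is the reverse of the order on the CPM scale. Histone genes, whose mRNAs mostly lack a poly-A tail, moved with the same library: their summed CPM was 1747, 4958, 1617 and 1452 in the same order. Their part in the ribosomal protein values was not tested.

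In the fit across all genes, no ribosomal protein gene was called. The quasi-likelihood test of edgeR compared the groups for 17479 genes, and 81 of the 84 members passed its filter on low counts. A gene was called when its adjusted p (Benjamini-Hochberg) was under 0.05 and its log2 fold change was 1 or more in either direction. By this rule 0 members and 0 of all genes were called (0% of all genes tested), with a smallest adjusted p of 0.773, while 768 genes had an unadjusted p under 0.05. DESeq2 called 0 members and 90 genes (0.515%). At an unadjusted p under 0.05, 7 members were lower in doxorubicin libraries, against 1.73% of all genes tested, and 0 were higher, against 2.66%. At the same limit DESeq2 found 2 members lower, against 5.17% of all genes.

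The direction was shared by most members. The fitted log2 fold change was below 0 for 76 of 81 members, beside 49.2% of all genes, and its median was -0.48 beside 0.01 over all genes. Without untreated replicate 2, 73 of 81 members were below 0, beside 46% of all genes, and the median was -0.30 beside 0.05. In that fit 0 members were called, against 871 genes (4.98%), and 19 members were lower at an unadjusted p under 0.05, against 6.83% of all genes, and 0 were higher, against 12.7%. A fit with 1 untreated library assumes that this library varies like the doxorubicin pair. Without untreated replicate 1 instead, 14 members were called, against 41% of all genes tested, 57 were lower at an unadjusted p under 0.05, against 29.6%, and the median was -0.63.

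**Figure D2:**
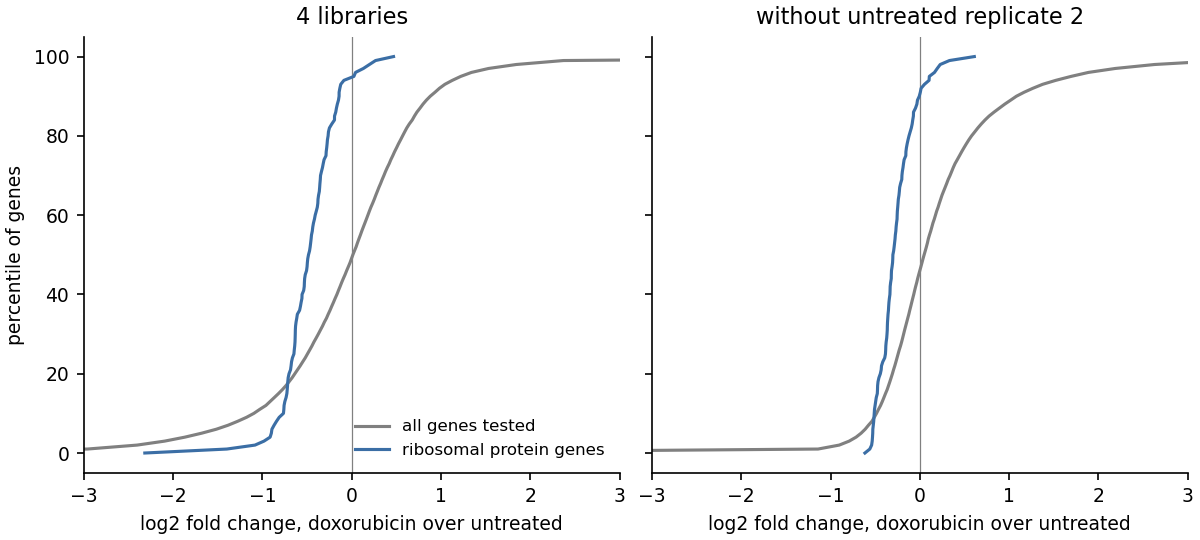
Distribution of the fitted log2 fold change of doxorubicin over untreated, as percentiles, over all 17479 genes tested (grey) and over the 81 ribosomal protein genes tested (blue), with 4 libraries and without untreated replicate 2. Values beyond 3 in either direction lie outside the axis. The blue line crosses 0 near its upper end in both panels, with medians of -0.48 and -0.30.

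Counted without a model, 47 of 81 members had both doxorubicin CPM values below both untreated values, against 11.5% of all genes tested, and 3 members (RPL7L1, RPL22 and RPL36A) had both above, against 30.3%. Of these 3, RPL36A had only 50, 40, 56 and 52 counts. RPL7L1 had a log2 fold change of 0.05, and -0.07 without untreated replicate 2, and RPL22 had 0.22 and 0.18. With TMM-scaled CPM the count below was 62 of 81, against 17.9% of all genes, and the count above was 2, against 21.3%. Measured against untreated replicate 1 only, 52 of 81 members were below it in both doxorubicin libraries, against 24.7%, and 12 were above it in both, against 53.1%. For 63 of 81 members the highest of the libraries was untreated replicate 2, against 36.6% of all genes.

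Levels of different genes were compared per length. As the mean CPM over the 4 libraries per kilobase of coding sequence, RPL41, the smallest ribosomal protein, was highest at 6005, followed by RPLP1 at 3780.5, RPL13A at 3627, RPL37 at 3497 and RPS20 at 3214. The median over the 84 members was 1234.5. Untranslated parts of the transcripts are not in this length, which favours short genes.

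The lowest fold changes among well counted members belonged to RPS15, RPL12, RPL28 and RPS2. RPS15, a protein at the head of the small subunit, had a CPM of 594 and 1090 in untreated and 486 and 434 in doxorubicin libraries. RPL12, which forms the base of the stalk, had 627 and 994 against 506 and 448. In both genes the doxorubicin libraries were below the lower untreated library and untreated replicate 2 was far above the rest. The log2 fold change was -1.03 for RPS15 (SE 0.37, adjusted p = 0.773, edgeR) and -0.92 for RPL12 (SE 0.33, adjusted p = 0.773). Without untreated replicate 2 the values came to -0.51 (SE 0.21) and -0.53 (SE 0.21), with adjusted p values of 0.142 and 0.117 in edgeR.

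RPL28 and RPS2, proteins of the large and small subunit, had the same order of libraries. The CPM of RPL28 was 829 and 1295 in untreated and 689 and 575 in doxorubicin libraries, with a log2 fold change of -0.90 (SE 0.33). The CPM of RPS2 was 2700 and 4325 in untreated and 2228 and 1981 in doxorubicin libraries, with a log2 fold change of -0.89 (SE 0.32). Both differences were smaller without untreated replicate 2, at -0.53 and -0.50. RPL18 and RPSA were also under an unadjusted p of 0.05, at 0.0407 and 0.0470. RPSA, the laminin receptor precursor that sits on the small subunit, had a CPM of 1691 and 2283 in untreated and 1401 and 1281 in doxorubicin libraries.

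RPL8 moved least of these 7 when untreated replicate 2 was left out. This protein of the large subunit lies near its catalytic centre. Its CPM was 2596 and 2781 in untreated and 2002 and 1727 in doxorubicin libraries, so that the replicates of each group lay closer to each other than the groups did. The log2 fold change was -0.68 (SE 0.26, unadjusted p = 0.0421, adjusted p = 0.773, edgeR). Leaving out untreated replicate 2 gave -0.62 (SE 0.21), the lowest of all members, with an adjusted p of 0.0528 in edgeR. RPL36, RPL7A, RPL12 and RPL28 followed in that fit, at -0.55, -0.54, -0.53 and -0.53. RPL7A, a protein of the large subunit, had a CPM of 866 and 875 in untreated and 717 and 597 in doxorubicin libraries, and the untreated replicates were nearly equal.

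**Figure D3:**
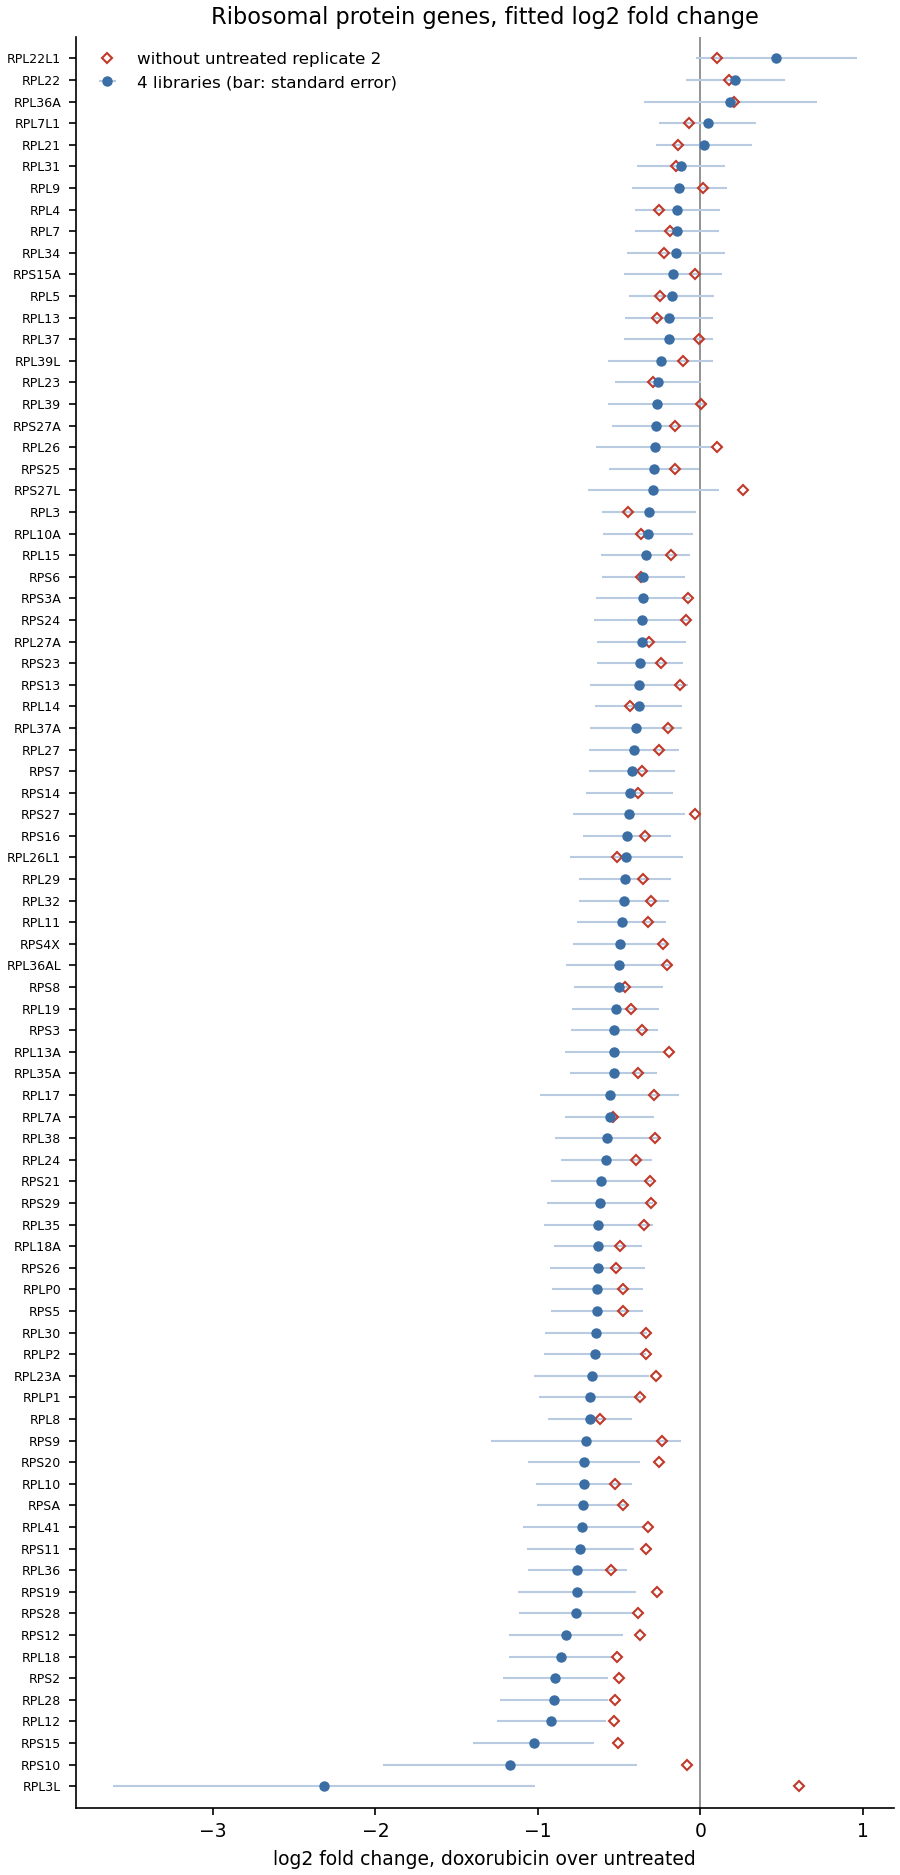
Fitted log2 fold change of doxorubicin over untreated for the 81 ribosomal protein genes tested, ordered by value. Filled points are the fit of 4 libraries with its standard error, and open points are the fit without untreated replicate 2. Nearly all filled points are below 0, and the open points of RPL3L, RPS10, RPS27L and RPS15 are the farthest from the filled ones.

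The P-stalk recruits translation factors to the ribosome and is built from RPLP0, RPLP1 and RPLP2. RPLP0 had a CPM of 1762 and 2134 in untreated and 1525 and 1265 in doxorubicin libraries. RPLP1 had 1244 and 1809 against 1162 and 957, and RPLP2 had 613 and 894 against 565 and 505. All 3 were lower in both doxorubicin libraries than in both untreated ones, as were 11.5% of all genes tested. The log2 fold changes of RPLP0, RPLP1 and RPLP2 were -0.63, -0.68 and -0.65, and -0.47, -0.37 and -0.33 without untreated replicate 2. Of the 3, RPLP0 had an unadjusted p under 0.05 in the fit without untreated replicate 2 (0.0263, edgeR) and an adjusted p of 0.176 there.

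The members known to bind MDM2 had a median nearer to 0 than that of all members with 4 libraries (-0.35 against -0.48). Without untreated replicate 2 the medians were close (-0.27 against -0.30). RPL5, which carries 5S ribosomal RNA together with RPL11, had a CPM of 744 and 655 in untreated and 648 and 735 in doxorubicin libraries, and the groups overlapped. RPL11 had 657 and 798 against 594 and 564, without overlap. Their log2 fold changes were -0.18 (SE 0.26) and -0.48 (SE 0.27), with adjusted p values of 0.844 and 0.773 in edgeR. RPL23, RPL26, RPS7 and RPS14, other MDM2 binders, had log2 fold changes of -0.26, -0.28, -0.42 and -0.44. Without untreated replicate 2 they were at -0.29, 0.11, -0.36 and -0.38, with RPL26 on the other side of 0, and RPL5 and RPL11 were at -0.25 and -0.32. This list also holds RPS27 and RPS27L. Of its 8 members, 8 were below 0, beside 49.2% of all genes, with a median of -0.35. An unadjusted p under 0.05 (edgeR) was found for 0 of the 8, against 1.73% of all genes lower and 2.66% higher. Leaving out untreated replicate 2 left 6 of 8 below 0, beside 46% of all genes, with a median of -0.27. RPS27A, made as a fusion with ubiquitin, had -0.27, and -0.16 without that library.

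RPS27L and RPS27 encode near-identical small subunit proteins. RPS27 had a CPM of 307 and 497 in untreated and 348 and 311 in doxorubicin libraries, a log2 fold change of -0.44 (SE 0.34, adjusted p = 0.775, edgeR). RPS27L had 68.1 and 129 in untreated and 86.7 and 93.2 in doxorubicin libraries, a log2 fold change of -0.29 (SE 0.41, adjusted p = 0.836). Both genes were highest in untreated replicate 2 and lowest in untreated replicate 1, so that the doxorubicin libraries lay between the untreated ones. When untreated replicate 2 was left out, RPS27L turned to 0.26 (SE 0.23), while RPS27 was at -0.03 (SE 0.22). No direction can be given for RPS27L, and the groups overlapped for RPS27 as well.

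The ratio of RPS27L to RPS27 counts within a library needs no scaling between libraries. It was 0.222 and 0.260 without treatment, and 0.249 and 0.299 with it. Doxorubicin replicate 1 lay below untreated replicate 2, so the groups overlapped. The log2 change of the mean ratio was 0.19, and 0.31 against untreated replicate 1 alone. With 2 libraries a group, an exact permutation test cannot reach a p under 0.05, and none was made.

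The other paralogs differed from each other. RPL22L1, a paralog of RPL22 that is usually minor, had a CPM of 22.5 and 11.8 in untreated and 20.7 and 32.9 in doxorubicin libraries, and RPL22 had 87.9 and 81.1 against 102 and 117. RPL22 was thus higher in both doxorubicin libraries than in both untreated ones, and RPL22L1 was not. The log2 fold change was 0.22 for RPL22 (SE 0.30, adjusted p = 0.837, edgeR) and 0.47 for RPL22L1 (SE 0.49, adjusted p = 0.805), the highest values of the 81 in the fit of 4 libraries. RPL22L1 was at 0.10 without untreated replicate 2 and at 0.98 without untreated replicate 1 (adjusted p = 0.00134, edgeR), and RPL22 was at 0.18 and 0.25. In the fit without untreated replicate 2, RPL3L (0.61), RPS27L (0.26) and RPL36A (0.21) were above both. RPL22L1 made up 20.4%, 12.7%, 16.8% and 21.9% of the pair's counts, with the lowest share in untreated replicate 2.

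RPL26L1 had its highest level in untreated replicate 1 and its parent in untreated replicate 2. Its CPM was 58.6 and 52.7 in untreated and 49.6 and 40.6 in doxorubicin libraries, while RPL26 had 67.4 and 106 against 79.6 and 80.01. Its share of the pair was 46.5%, 33.1%, 38.4% and 33.7%, so that untreated replicate 1 stood above the rest and the groups overlapped. RPL39L made up 19.02%, 16.6%, 19.8% and 16.1% of its pair with RPL39, and RPL7L1 13.9%, 12.7%, 15.6% and 14.3% of its pair with RPL7. RPL36AL held 98.5% to 99.2% of its pair with RPL36A in the 4 libraries. The RPL36A row had only 50, 40, 56 and 52 counts and its level is uncertain, so this share is uncertain too. The median log2 fold change of the 7 paralogs tested was -0.29, and -0.07 without untreated replicate 2, beside -0.48 and -0.30 for all 81.

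**Figure D4:**
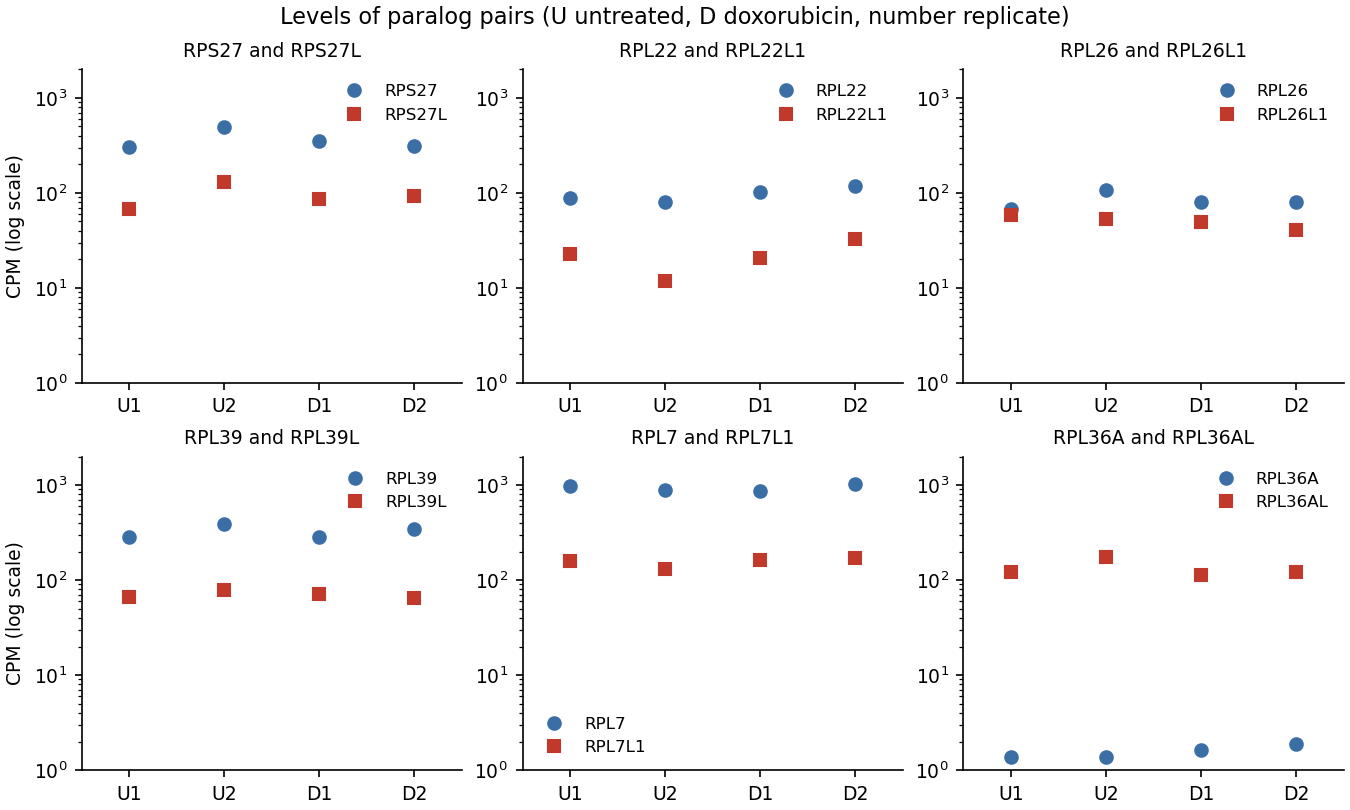
CPM of 6 parent genes (blue circles) and their paralogs (red squares) in untreated replicates 1 and 2 (U1, U2) and doxorubicin replicates 1 and 2 (D1, D2), on a log axis. RPS27 and RPS27L are both lowest in U1 and highest in U2, RPL22 is highest in both doxorubicin libraries, and RPL36AL exceeds RPL36A in every library. RPL36A had only 50, 40, 56 and 52 counts, and its level is uncertain.

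Several members had almost no counts although every ribosome holds their protein. The counts were 10, 2, 1 and 1 for RPS18, untreated libraries first. RPS10 had 26, 69, 23 and 23 counts and RPS9 had 94, 131, 96 and 55. Of the 84 members, 7 were at a CPM of at most 5 in every library, RPL36A and the paralogs RPL3L and RPL10L among them. RPL3L, which replaces RPL3 in muscle, had 8, 95, 11 and 12 counts, most of its signal in untreated replicate 2, and RPL10L, a testis gene, had 0, 1, 0 and 1. RPS10, RPL17 and RPL36A share exons on their strand with read-through genes in GENCODE release 44, and the read-through rows RPS10-NUDT3, RPL17-C18orf32 and RPL36A-HNRNPH2 held 0 counts in every library. How reads shared by overlapping genes or by pseudogene copies were counted is not given in the sources used here, and levels of these members are uncertain.

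Members with a GC-rich coding sequence had lower fold changes, and the doxorubicin replicates differed along the same property. Over the 75 members with a mean CPM of at least 50, the Spearman correlation of coding GC with the log2 fold change was -0.62, and -0.68 without untreated replicate 2. Between the doxorubicin replicates, which had the same treatment, the correlation of GC with the log2 ratio of replicate 2 to replicate 1 was -0.74, and for doxorubicin replicate 1 over untreated replicate 1 it was -0.43. Over all 4280 protein-coding genes with a mean CPM of at least 50 the values were -0.28, -0.18, -0.59 and 0.04 in the same order. All points of a correlation share the same libraries, and genes are not replicates.

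In the 25 of these members with the lowest GC (42.1% to 47.5%) the median log2 fold change was -0.28, and -0.15 without untreated replicate 2. In the 25 with the highest GC (54.0% to 63.0%) it was -0.64 and -0.38. Doxorubicin replicate 2 was below doxorubicin replicate 1 in 10 of the 25 GC-poor members and in 25 of the 25 GC-rich ones. The log2 ratio of doxorubicin replicate 1 to untreated replicate 1, which had nearly no relation to GC over all genes, had a median of -0.03 in the GC-poor and -0.17 in the GC-rich members, and 14 of 25 and 23 of 25 were below 0. Coding length had a correlation of -0.42 with the log2 ratio of untreated replicate 2 to untreated replicate 1 over the 75 members, so that short members were high in untreated replicate 2. The part of GC and length in the comparison of groups was not tested.

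**Figure D5:**
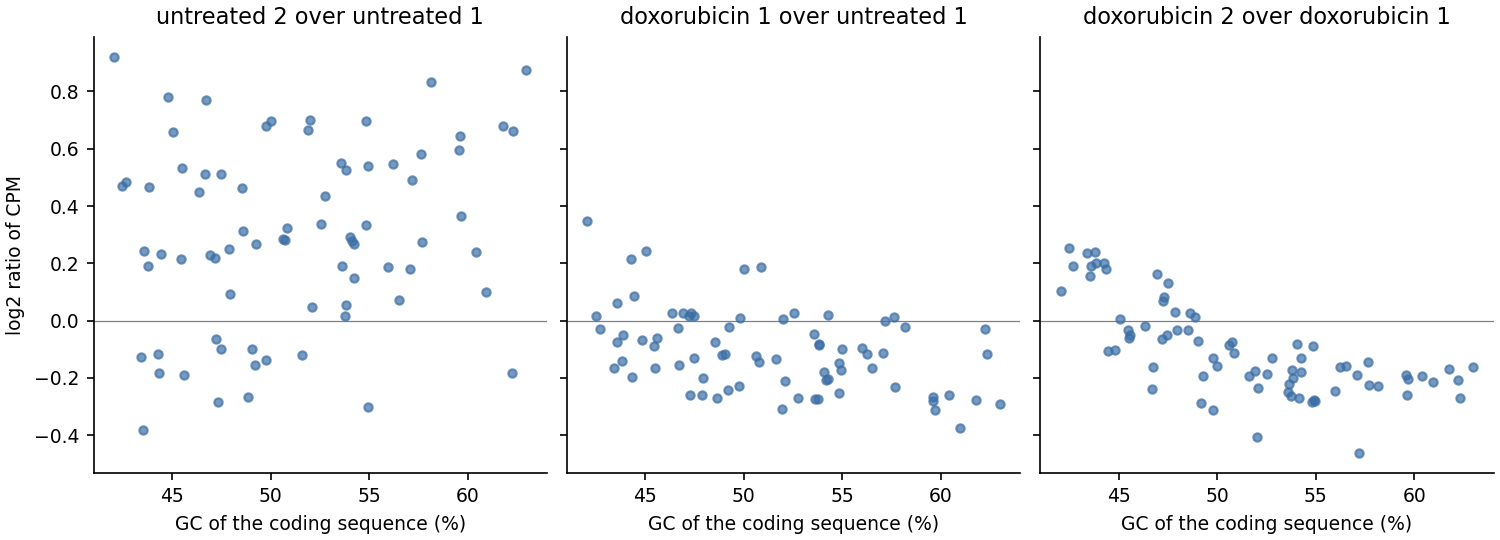
Log2 ratio of CPM between pairs of libraries against the GC of the coding sequence in percent, for the 75 ribosomal protein genes with a mean CPM of at least 50, each point 1 gene. The ratio of the doxorubicin replicates declines with GC (Spearman correlation -0.74), and most genes are above 0 for untreated replicate 2 over untreated replicate 1.

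Members with and without a TOP at an annotated start did not stand apart. The median log2 fold change was -0.47 over the 46 tested members with one, and -0.31 without untreated replicate 2. The 19 matched and tested members without one had -0.46 and -0.30. These classes rest on the annotated start base, so a pyrimidine run that begins at another base was not counted. RPS15, in the class without a TOP, has such a run past its annotated start. The comparison therefore cannot decide whether members with a TOP differ from members that lack one. Other TOP mRNAs were mostly of elongation and initiation factors but also of RACK1, a component of the small subunit. Over 13 tested genes their median was -0.10, and -0.20 without untreated replicate 2. Of the 13, 8 were below 0, beside 49.2% of all genes, and 10 without untreated replicate 2, beside 46%. With 4 libraries 0 of them had an unadjusted p under 0.05 (edgeR), against 1.73% of all genes lower and 2.66% higher. FAU, a ubiquitin-like fusion that carries RPS30 and falls outside the name rule, had a log2 fold change of -0.94, and -0.31 without untreated replicate 2.

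Genes of related function were counted beside the members. Of 76 tested mitochondrial ribosomal protein genes, 66 had a log2 fold change below 0, beside 49.2% of all genes, with a median of -0.45, and 5 were lower at an unadjusted p under 0.05, beside 1.73%. Their median was -0.36 without untreated replicate 2. Of 32 genes of ribosome assembly and RNA polymerase I, 24 were below 0, with a median of -0.35. Without untreated replicate 2, 30 of 32 were below 0 with a median of -0.40, and 6 had an adjusted p under 0.05 (edgeR), against 1.84% of all genes lower at that limit. Among them were BOP1, a 60S assembly factor, and POLR1A, the largest subunit of RNA polymerase I, at -0.91 and -0.82. Of the mitochondrial ribosomal protein genes 4 of 76 were lower at that limit in the same fit, and of the cytosolic members 0 of 81. BOP1 and POLR1A were at -0.52 and -0.42 with 4 libraries, and untreated replicate 2 was the lowest library for both. BOP1 had a CPM of 303 and 154 in untreated and 187 and 168 in doxorubicin libraries, and POLR1A had 163 and 80.2 against 112 and 89.7. Without untreated replicate 1, 20 of the 32 assembly and polymerase genes were below 0, beside 48.4% of all genes, with a median of -0.33. The 17 tested genes mutated in Diamond-Blackfan anaemia, an inherited failure of red cell formation, had a median of -0.48 with 17 below 0, beside 49.2% of all genes, and a median of -0.27 with 16 below 0, beside 46%, without untreated replicate 2. RPS19, the gene most often mutated, had a CPM of 1046 and 1865 in untreated and 1031 and 880 in doxorubicin libraries, and untreated replicate 1 and doxorubicin replicate 1 were nearly equal. Its log2 fold change was -0.76, and -0.27 without untreated replicate 2.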

How the data were processed

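Poly-A-selected RNA of 4 libraries was sequenced. The authors deposited whole-number read counts per gene without normalization. Per the study's methods, reads were filtered with FastQC and Cutadapt, mapped with HISAT2 (hg38) and counted with HTSeq, and the file headers name GENCODE release 31. Versions, strand setting and treatment of multiply mapped reads are not given in the sources used here. Counts were analysed with edgeR 4.0.16 in R 4.3.3 (filterByExpr, TMM, quasi-likelihood test, Benjamini-Hochberg adjustment, prior count 0.125), at the study's thresholds. SE was the log2 fold change divided by the root of F. CPM is the count over the library total. DESeq2 1.42.0, the exact test, other normalizations and filters, a replicate block and leaving out each library were alternatives, and scripts were tested on simulated data. Coding length and GC came from the canonical transcripts of GENCODE release 44, which matched 84 of 84 members, and promoters from RefSeq. Members and lists were chosen with earlier results of these data known. Named genes were RPS27 and RPS27L, MDM2 binders, the stalk, paralog pairs, RPS27A, RPSA, RPS19, RPS26, the 5 highest and 5 lowest by mean CPM, and the 5 most positive and 5 most negative log2 fold changes with 4 libraries and without untreated replicate 2. RPL18, RPL37, RPL41, RPS20, RPS9, RPL17, RPL23A, BOP1, POLR1A, RACK1, KRT8, KRT18, DCN, LUM and FGG were named after their values were seen. Single values of some genes are not reported here.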

Additional observations from a re-analysis of the deposited data

How the results depend on the processing

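The quasi-likelihood fit called 0 of all genes (768 at an unadjusted p under 0.05), against 90 by DESeq2, 38 by the exact test of edgeR, and 0 to 7173 when 1 library was left out (871 without untreated replicate 2, 7173 without untreated replicate 1). The correlation of the deviations of libraries with the same replicate number was 0.0219. With 2 libraries a group each deviation holds only the gap between replicates, so this cannot decide whether the numbers pair the samples. With the replicate number as a block 20 genes were called. In that fit 1 member was lower at an unadjusted p under 0.05 (edgeR), against 2.57% of all genes. Members called were 0 under each alternative except without untreated replicate 1, where there were 14, a range of 0 to 14. Members lower at an unadjusted p under 0.05 were 7, and 2 with DESeq2, 0 with library size alone, 15 without a filter, and 0 to 57 when 1 library was left out. Of all genes, 1.73% were lower at that limit in the main fit, 5.17% with DESeq2, and 152 of 17479 with library size alone. Without a filter, 1543 of 36677 genes were under that limit in either direction. The median log2 fold change of the members was -0.33 with library size alone, where that of all genes was 0.17. The member median was -0.63 to -0.30 when 1 library was left out (-0.63 without untreated replicate 1, -0.30 without untreated replicate 2). RPS27L was at 0.26 without untreated replicate 2 and at -0.71 without untreated replicate 1. Among the named genes the sign also turned without untreated replicate 2, against the value without untreated replicate 1, for RPL26 (0.11 against -0.60), RPL3L (0.61 against -3.31), RPL7L1 (-0.071 against 0.17), RPL39 (0.0078 against -0.51) and RPL21 (-0.14 against 0.20), and RPL21 was at -0.0091 without doxorubicin replicate 2. With RLE factors RPL7L1 was at -0.0044 and RPL21 at -0.0262, with DESeq2 they were at -0.0043 and -0.0261, and with library size alone RPL7 was at 0.0173. Over the 81 members tested, 5 were above 0 with 4 libraries, 8 without untreated replicate 2 and 10 with library size alone. The causes were not tested. The biological coefficient of variation was 0.486, with 2 libraries a group.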

Other observations

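Rows that name a pseudogene of a member, a member's symbol followed by P and a number, were counted apart. There were 1144 of them, with 91 for RPL23A, 74 for RPSA, 66 for RPL21 and 61 for RPL7. They summed to 2789 and 3674 CPM without treatment and to 2448 and 2268 CPM with it, the same order of libraries as for the members. The log2 ratio of the group means was -0.45 for the pseudogene rows and -0.38 for the members, and the sum of both gave -0.38. Of the pseudogene rows, 1092 were at a CPM of at most 5 in every library and 105 were tested, with a median log2 fold change of -0.45. Reads of a member and of its processed copies can be hard to tell apart, and how they were divided is not given in the sources used here.

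Transcripts of the mitochondrial genome, which took a share of the counts close to that of the members, had a summed CPM of 55236 and 57523 in untreated and 49390 and 52080 in doxorubicin libraries. In contrast to the members, untreated replicate 2 was close to untreated replicate 1 in this sum.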
